A study of Mus musculus with 16 samples.

Results

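The comparison set 1 array of control bulge stem cells against 3 arrays of control interfollicular epidermis (IFE), 4 of the 16 arrays of the series, all from mouse tail epidermis. The arrays of each group were taken by their titles, and no measured value entered that assignment. The bulge cells were sorted by flow cytometry from untreated K19CREERT2/Rosa-SmoM2-YFP mice and are labelled as bulge and outer-root sheath (ORS) cells (n = 1). The IFE cells were basal cells sorted from untreated K14CREER/Rosa-SmoM2-YFP mice (n = 3). All of these mice carried, without tamoxifen, the Rosa-SmoM2-YFP allele, which yields active Smoothened only after Cre recombination, and all had a mixed strain background. In one line a keratin 19 promoter drives the Cre and in the other a keratin 14 promoter, so mouse line and compartment cannot be told apart. One label of the untreated bulge array calls its cells SmoM2+, against the absence of tamoxifen in its title, and another names CD34. No age is given. Whether each array stands for its own mouse or for pooled mice is not labelled, so every p-value covers the spread between arrays, which may be technical. As these are sorted populations, more RNA of a gene per cell and more cells that express it cannot be told apart.

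The bulge is the lower permanent part of the hair follicle, where slow-cycling stem cells that regenerate the follicle reside. Its cells are known for surface CD34, for keratin 15 and for transcription factors such as Lhx2, Sox9 and Tcf7l1. The interfollicular epidermis is the stratified sheet between follicles, whose basal cells produce keratins 5 and 14 and switch to keratins 1 and 10 as they leave the basal layer. In the mouse tail this sheet also forms scales, which contain hair-type keratins.

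Values are log2 array signals as deposited, and a difference is the bulge value minus the mean of the 3 IFE controls. A gene was counted as higher or lower when the bulge array lay outside the range of all 3 controls and at least 1 log2 from their mean. A single bulge array has no replicate check, and an exact permutation test of 1 array against 3 cannot go below p = 0.25. Beside the counts, limma was fitted to all 16 arrays, with the lone array assumed to vary like the replicated groups and p-values adjusted by Benjamini-Hochberg over 18194 genes. The 3 controls correlated with each other across genes at Pearson r of 0.972 to 0.979, and the bulge control correlated with them at 0.939 to 0.948. The bulge control and the bulge SmoM2 array correlated at 0.976.

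Of 18194 genes, 1045 (5.74%) were higher and 805 (4.42%) lower in the bulge control, 1850 in all (10.2%). The differences reached at least 2 log2 for 341 higher and 228 lower genes and at least 4 log2 for 49 higher and 11 lower genes. The bulge array lay outside the range of the controls for 10623 genes (58.4%), and a counted gene lies outside it by the rule itself. Over all genes the median difference was −0.09 and the median range of the 3 controls was 0.445. At the edge of the count, Fam189b lay just inside at 1.00002 and 1700016K19Rik just outside at 0.9988, and Fam234b at −1.0006 and Il13ra2 at −0.9993 marked the lower edge. In limma, 405 genes (2.23%) were higher and 159 (0.874%) lower at an adjusted p under 0.05, of which 391 and 153 were also counted by range and size. The lower count rested on each control: it was 96 without IFE control replicate 1, 94 without replicate 2 and 92 without replicate 3. The higher count was 324, 283 and 324 without the same arrays. Of 57 named genes that passed, 18 no longer passed without 1 or another control: Axin2, Cck, Clca3a2, Col1a1, Col4a1, Crabp1, Dgat2, Fgf13, Foxq1, Gjb2, Gli2, Krt10, Krt75, Lamb1, Lgr5, Lhx2, Ly6d and Tbx1.

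**Figure D1:**
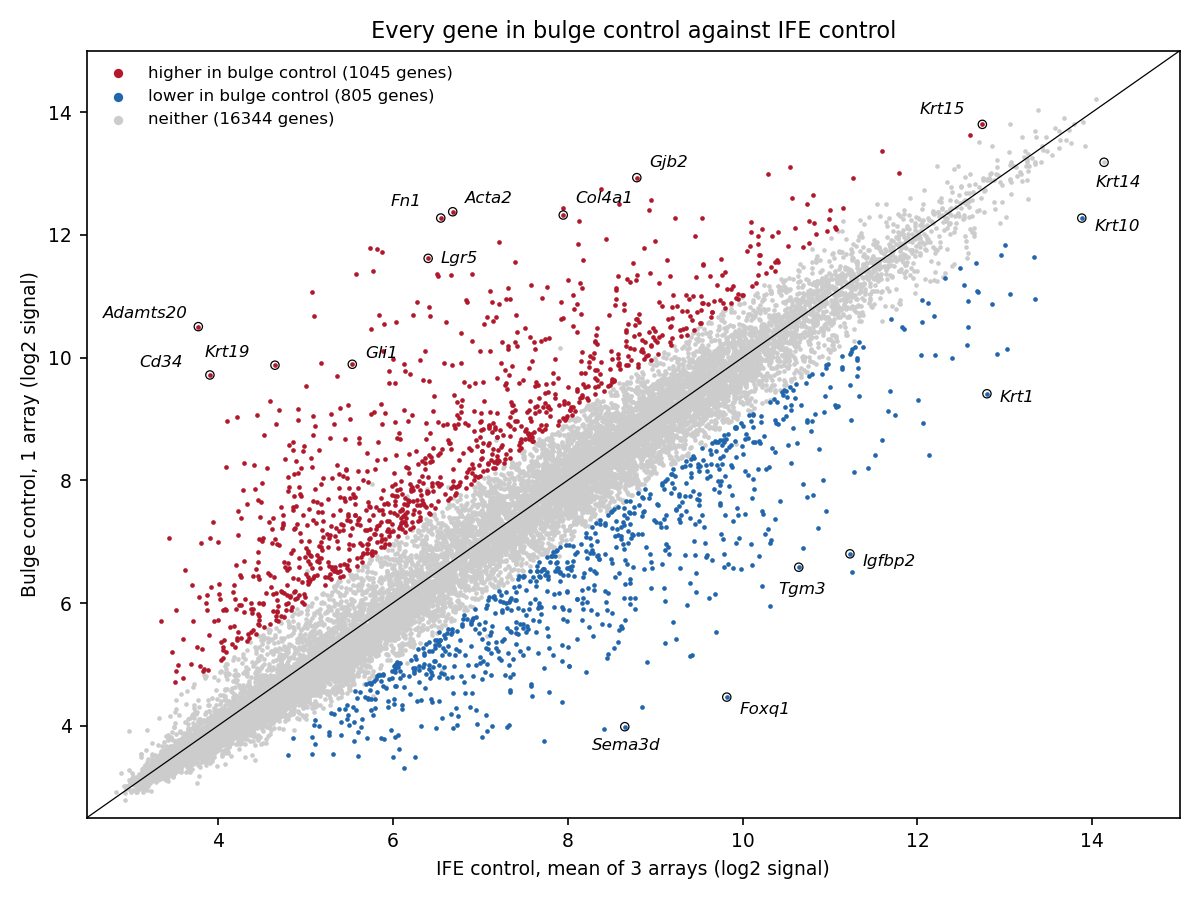
Each point is 1 of 18194 genes, with the mean log2 signal of the 3 IFE controls on the x axis and the log2 signal of the bulge control on the y axis. Red points (1045) lie above and blue points (805) below the range of the controls by the rule of 1 log2; Adamts20 and Cd34 lie far above the diagonal and Foxq1 and Sema3d far below it.

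Most markers of bulge stem cells were higher in the bulge control. Of 29 listed markers 16 were counted higher and 3 lower, with a median difference of 1.15 against −0.09 over all genes, and 6 passed limma, all higher. Cd34 encodes the surface sialomucin by which bulge cells are commonly sorted. In the IFE controls it lay under the 40th percentile of each array (4.88 to 4.99), so a fold against them rests on low signals. Cd34 had a signal of 9.72 in the bulge control and 3.80, 3.78 and 4.15 in the IFE controls. Its difference was 5.81 ± 0.60 (SE; limma adjusted p = 0.000552), a 56.0-fold difference, and if CD34 was used in the sort this value is no finding. Lgr5, an R-spondin receptor of cycling follicle stem cells, had 11.62 in the bulge control and 6.13, 6.30 and 6.78 in the IFE controls, a difference of 5.21 ± 1.01 (SE; limma adjusted p = 0.0195). Without 1 or another IFE control the adjusted p of Lgr5 ranged from 0.0398 to 0.0517.

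Of 32 epidermal and follicle transcription factors read, 9 were counted higher and 10 lower, with a median of −0.02. Of the 32, 20 also stand in other lists, as do 26 of the 29 bulge markers, so counts of different lists are not separate. Lhx2, which maintains follicle stem cells, had 11.89 in the bulge control and 7.12, 6.86 and 7.65 in the IFE controls (difference 4.68 ± 0.98 SE, limma adjusted p = 0.0277). Tbx1 had 11.08 in the bulge control and 7.79, 6.79 and 6.76 in the IFE controls (3.97 ± 0.86 SE, adjusted p = 0.0317). Tcf7l1, a repressor of Wnt target genes, had 10.18 in the bulge control and 7.63, 7.35 and 7.30 in the IFE controls (2.76 ± 0.25 SE, adjusted p = 0.000277). The vitamin D receptor Vdr passed as well, at 2.74 (adjusted p = 0.00912). Several well known markers were counted higher but did not pass limma: Runx1 at 3.38 (adjusted p = 0.156), Sox9 at 1.59 (0.511) and Krt15 at 1.06 (0.147). Krt15 signal was high in both compartments, at 13.80 in the bulge control and 12.51 to 12.90 in the IFE controls.

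A minority of the listed markers were lower. Nfatc1, a transcription factor of bulge quiescence, had 6.19 in the bulge control and 9.05, 7.91 and 8.31 in the IFE controls (difference −2.23, limma adjusted p = 0.133). Foxc1 differed by −1.87 (adjusted p = 0.347) and the matricellular protein Postn by −1.02 (0.479). The Wnt antagonist Wif1 was not counted, with 4.70 in the bulge control and 5.60, 4.43 and 4.46 in the IFE controls. Averaging all probe sets of a gene in place of its brightest one gave 1.70 for Tcf7l1, 1.52 for Runx1, 1.04 for Sox9 and −1.17 for Nfatc1.

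Keratins separated the compartments in both directions. Krt19, a keratin of the bulge and outer root sheath whose promoter drives the Cre of this mouse line, had 9.88 in the bulge control and 4.54, 4.70 and 4.71 in the IFE controls (difference 5.22 ± 0.42 SE, limma adjusted p = 0.000145). The simple epithelial keratin pair Krt8 and Krt18 was higher as well. Krt8 had 10.91 in the bulge control and 6.62, 5.96 and 6.24 in the IFE controls (4.64 ± 0.73 SE, adjusted p = 0.00692). Krt18 had 9.07 in the bulge control and 4.49, 4.41 and 4.44 in the IFE controls (4.63 ± 0.76 SE, adjusted p = 0.00842). Both keratins also mark Merkel cells, and with Cck (1.55, adjusted p = 0.0246) they were the 3 genes counted higher of 12 Merkel cell genes read, none being lower (median −0.11). Atoh1, Sox2 and Krt20 had 4.36, 3.28 and 4.00 in the bulge control, under the 40th percentile of that array (4.91), and were not counted. The part of Merkel cells in these values was not tested. The companion layer keratin Krt75 differed by 2.65 (adjusted p = 0.0201) and the gap junction protein Gjb2 by 4.14 (0.0199).

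Of the 13 genes read for the outer root sheath and companion layer, 6 were counted higher and 3 lower, with a median of −0.39. The lower members were Krt79 at −2.69 (limma adjusted p = 0.0186), Krt16 at −1.35 (0.785) and the activin antagonist Fst at −2.04 (0.156). The basal keratins Krt14 and Krt5 were not counted. Krt14 had 13.18 in the bulge control and 14.21, 14.19 and 14.003 in the IFE controls, and the difference of −0.95 lay below the size rule (limma adjusted p = 0.172). Krt5 had 13.45 in the bulge control and 14.23, 13.77 and 13.75 in the IFE controls (−0.47, adjusted p = 0.704). Of 20 basal keratinocyte genes read, 2 were counted in each direction. The higher ones were the glutamate transporter Slc1a3 (2.55, adjusted p = 0.00692) and the matrix protein Thbs1 (3.67, 0.203), and the lower ones were the surface protein Ly6d (−2.85, 0.0458) and Dlk2 (−2.44, 0.000768).

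**Figure D2:**
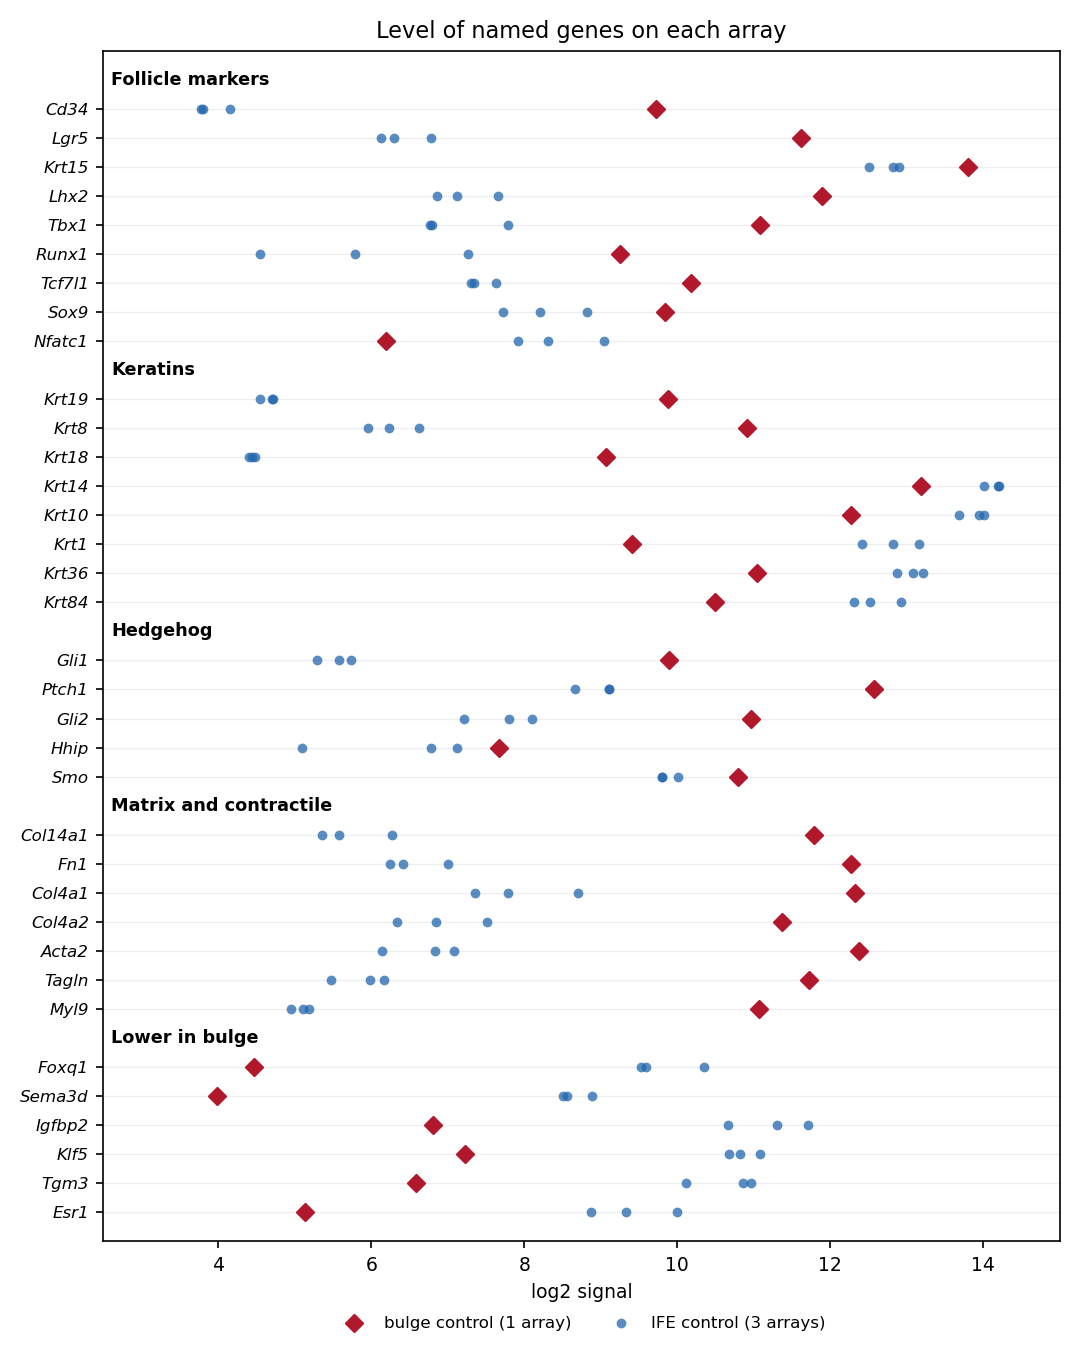
Log2 signal (x axis) of named genes (rows) on each array, with a red diamond for the bulge control and blue points for the 3 IFE controls. Cd34, Lgr5, Krt19, Gli1, Fn1 and Acta2 lie far to the right in the bulge control, Foxq1, Sema3d, Krt1 and Tgm3 far to the left, and Krt14 lies less than 1 log2 from the control mean.

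Several hedgehog pathway genes, Gli1 and Ptch1 among them, were higher in the untreated bulge than in the untreated IFE. Hedgehog ligands bind Ptch1, which releases Smo and lets Gli factors act, and Gli1, Ptch1 and Hhip are themselves targets of the pathway. Of 16 genes read, 7 were counted higher and 1 lower (median 0.85), and 5 passed limma, all higher. Gli1 had 9.89 in the bulge control and 5.73, 5.58 and 5.30 in the IFE controls, a difference of 4.35 ± 0.78 (SE; limma adjusted p = 0.0136). Ptch1 had 12.57 in the bulge control and 9.10, 8.66 and 9.11 in the IFE controls (3.61 ± 0.68 SE, adjusted p = 0.0166). Gli2, the main activating factor, had 10.97 in the bulge control and 8.10, 7.80 and 7.22 in the IFE controls (3.26 ± 0.71 SE, adjusted p = 0.0326).

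Among ligands and other members, Dhh differed by 1.51 (limma adjusted p = 0.0279) and the secreted Scube2, which helps release hedgehog ligands, by 1.79 (0.00184). Shh was not counted, with 5.42 in the bulge control and 6.20, 5.42 and 5.32 in the IFE controls. Hhip, the decoy receptor, had 7.67 in the bulge control and 6.78, 5.09 and 7.12 in the IFE controls (1.34, adjusted p = 0.816), and 0.72 without IFE control replicate 2. The coreceptor Cdon was the lower member (−1.43, adjusted p = 0.237). Smo had 10.80 in the bulge control and 9.80, 9.80 and 10.01 in the IFE controls, a difference of 0.93 that was not counted. The label that calls this array SmoM2-positive was therefore set beside the treated bulge array, where Gli1 was 9.96 and Hhip 10.64. Gli1 of the 2 bulge arrays differed by 0.07, and Hhip was higher by 2.96 in the SmoM2 array. Whether the untreated array holds cells with active SmoM2 was not tested.

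Among Wnt genes, 9 of 14 receptors of the Fzd, Lrp and Lgr families were counted higher and 0 lower, and of 14 ligands 2 were higher and 5 lower. Frizzled proteins and Lgr receptors receive Wnt and R-spondin signals, and Axin2 is a common readout of β-catenin dependent transcription. Of all 34 ligand, receptor and modulator genes, 12 were counted higher and 6 lower, with a median of −0.13. The receptor Fzd4 had 9.09 in the bulge control and 6.15, 5.70 and 5.87 in the IFE controls (3.18 ± 0.31 SE, limma adjusted p = 0.000407). Fzd5 and Fzd1 differed by 2.57 (adjusted p = 0.00692) and 1.85 (0.00866). Rspo1, a secreted agonist of Lgr receptors, had 7.05 in the bulge control and 3.89, 3.91 and 3.94 in the IFE controls (3.14 ± 0.33 SE, adjusted p = 0.000645). The ligands Wnt5a (1.77) and Wnt5b (1.19) were among the higher genes. The 6 lower genes were 5 ligands and a feedback inhibitor: Wnt3 (−2.82, adjusted p = 0.0944), Wnt10a (−1.97, 0.0139), Wnt4 (−1.87, 0.0612), Wnt3a (−1.59, 0.0488), Wnt16 (−1.54, 0.550) and the ubiquitin ligase Znrf3 (−1.64, 0.0597).

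Wnt targets were lower more often than higher. Of 13 targets and transcription factors, 2 were higher, Tcf7l1 and Tcf7l2, and 4 were lower. Axin2 had 6.08 in the bulge control and 8.29, 7.94 and 8.29 in the IFE controls (−2.10 ± 0.43 SE, limma adjusted p = 0.026), and without 1 or another control its adjusted p ranged from 0.0462 to 0.0709. Tnfrsf19 (−2.98, adjusted p = 0.252), Myc (−1.82, 0.169) and Ascl2 (−1.54, 0.0941) were the other lower targets. Averaging the probe sets gave −1.14 for Axin2 and −1.96 for Tnfrsf19. Of 12 secreted antagonists, Sfrp2 (3.27, adjusted p = 0.00105) and Dkk3 (1.15, 0.253) were higher and none was lower. Apcdd1, a membrane-bound Wnt inhibitor, was among the largest lower genes, with 6.28 in the bulge control and 10.76, 9.52 and 10.40 in the IFE controls (−3.94 ± 0.53 SE, adjusted p = 0.00278).

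In the BMP and TGF-beta pathway, 11 of 30 genes were counted higher and 6 lower, with a median of 0.45. Several ligands were on the lower side: Bmp4 had 4.49 in the bulge control and 7.83, 7.22 and 7.73 in the IFE controls (−3.10, limma adjusted p = 0.0501), Bmp2 differed by −1.57 (0.417) and Bmp7 by −1.10 (0.149). The Id genes, which BMP signals induce, were on the higher side. Id4 had 11.33 in the bulge control and 8.65, 8.35 and 8.71 in the IFE controls (2.76 ± 0.39 SE, adjusted p = 0.00373). Id1, Id2 and Id3 differed by 1.85 (limma adjusted p = 0.571), 1.68 (0.185) and 1.35 (0.0843). Fstl1, a secreted glycoprotein, had 11.76 in the bulge control and 6.84, 5.11 and 5.50 in the IFE controls (5.95 ± 0.88 SE, adjusted p = 0.00487).

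Matrix genes made up several of the largest differences. Of 41 collagen and matrix genes, 15 were counted higher and 2 lower (median 0.49), and 4 passed limma, all higher. Adamts20, a secreted metalloprotease, had the largest difference of all genes, with 10.50 in the bulge control and 4.00, 3.95 and 3.38 in the IFE controls (6.73 ± 0.50 SE, limma adjusted p = 0.000108). Fn1, fibronectin, had 12.27 in the bulge control and 6.24, 6.997 and 6.41 in the IFE controls (5.72 ± 0.49 SE, adjusted p = 0.00021). Col14a1, a fibril-associated collagen, had 11.79 in the bulge control and 6.27, 5.36 and 5.58 in the IFE controls (6.06 ± 1.47 SE, adjusted p = 0.0537). The 2 lower genes were Postn and Fras1 (−1.40, 0.676). The fibroblast collagens Col1a2 and Col3a1 were not counted, at 0.53 and −0.60, and Col1a1 had 5.63 in the bulge control and 4.26, 4.50 and 3.78 in the IFE controls (1.45, adjusted p = 0.0252).

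Col4a1 and Col4a2, which encode the chains of basement membrane collagen IV, were higher together. Col4a1 had 12.32 in the bulge control and 8.70, 7.79 and 7.36 in the IFE controls (4.37 ± 0.93 SE, limma adjusted p = 0.03). Col4a2 had 11.37 in the bulge control and 7.52, 6.85 and 6.33 in the IFE controls (4.47 ± 0.82 SE, adjusted p = 0.0148). These genes lie head to head on chromosome 8, with starts 21 bases apart in RefSeq (GRCm38.p6), and their 300-base promoter windows overlap by 78 bases. The windows run from 250 bases before to 50 after each start, at chr8:11312777-11313076 on the minus strand for Col4a1 and chr8:11312555-11312854 on the plus strand for Col4a2. They are shown because the windows share these bases. The shared bases lie around the starts, and no base lies before both genes. Capitals mark matches to CCAAT or GGGCGG on either strand, which do not overlap each other within a window.
Col4a1: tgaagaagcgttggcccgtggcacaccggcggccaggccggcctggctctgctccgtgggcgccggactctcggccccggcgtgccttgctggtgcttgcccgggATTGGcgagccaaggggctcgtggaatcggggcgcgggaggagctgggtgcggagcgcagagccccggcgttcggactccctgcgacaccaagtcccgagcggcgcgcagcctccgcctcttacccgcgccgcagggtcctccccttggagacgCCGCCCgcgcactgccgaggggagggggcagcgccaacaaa
Col4a2: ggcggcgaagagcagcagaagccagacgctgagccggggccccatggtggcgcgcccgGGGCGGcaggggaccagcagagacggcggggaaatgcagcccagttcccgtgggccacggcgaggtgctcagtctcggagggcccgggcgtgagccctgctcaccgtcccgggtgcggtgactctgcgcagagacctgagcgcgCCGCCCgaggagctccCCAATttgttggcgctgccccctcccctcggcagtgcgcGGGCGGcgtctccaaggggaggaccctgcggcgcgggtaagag
Col4a1 held 2 such matches and Col4a2 held 4. A GGGCGG match in the bases that the windows share is counted for both genes. Of all 32817 promoters, 37.4% held CCAAT and 35.6% held GGGCGG, so a match is a description of the window only.

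Genes of the contractile cytoskeleton were among the 15 largest differences. Acta2, smooth muscle actin, had 12.38 in the bulge control and 7.08, 6.15 and 6.83 in the IFE controls (5.69 ± 0.69 SE, limma adjusted p = 0.0016), and its other probe sets, both of low signal, differed by 0.90 and 0.39. Tagln, an actin-binding protein, had 11.72 in the bulge control and 6.16, 5.47 and 5.99 in the IFE controls (5.84 ± 0.66 SE, adjusted p = 0.00102). Myl9, a regulatory light chain of myosin, had 11.07 in the bulge control and 5.19, 4.95 and 5.10 in the IFE controls (5.99 ± 0.71 SE, adjusted p = 0.00138). In a list of 33 actin and contractile genes assembled after these values were seen, 22 were counted higher and 0 lower, with a median of 1.69. Muscle-restricted genes were at a low signal: Cnn1 had 5.48 in the bulge control and 4.40 to 4.64 in the IFE controls (0.97, limma adjusted p = 0.023, under the size rule), Myh11 had 4.72 in the bulge control and 4.53 to 5.10 in the IFE controls, and Des had 6.15 in the bulge control and 6.08 to 6.64 in the IFE controls.

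The contractile promoters of Acta2, Cald1, Cnn1, Myl9, Tpm1 and Tpm2 were searched for the CArG box, the element bound by serum response factor. This was a chosen set, and Tagln and other contractile genes were not searched. Only exact matches to CCWWWWWWGG were sought, where W is A or T. Stretches that differ from this pattern by a base were not counted. The promoter window of Myl9 (GRCm38.p6, chr2:156775214-156775513, plus strand) is shown because it alone of those searched held an exact match. Capitals mark the match, at position −161 from the start; the pattern is its own reverse complement, so both strands are covered.
Myl9: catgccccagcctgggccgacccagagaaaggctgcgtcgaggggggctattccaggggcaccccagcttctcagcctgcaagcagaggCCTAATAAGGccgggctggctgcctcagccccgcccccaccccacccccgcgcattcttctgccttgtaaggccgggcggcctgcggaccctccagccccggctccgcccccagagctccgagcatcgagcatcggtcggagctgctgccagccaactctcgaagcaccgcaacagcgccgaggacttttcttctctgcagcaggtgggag
Of all promoters 1.63% held such a match. The windows of the other 5 genes held no exact match, which says nothing about serum response factor at those genes.

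Growth factors, guidance cues and their receptors were higher more often than lower. Of 41 growth factor and receptor genes 13 were counted higher and 2 lower (median 0.03). Edn2, an endothelin, had 9.59 in the bulge control and 6.03, 5.77 and 6.29 in the IFE controls (3.56 ± 0.59 SE, limma adjusted p = 0.00912). Fgf5, the signal that ends hair growth, differed by 1.90 (0.00186). The lower members were Nrg4 (−1.73, adjusted p = 0.0231) and Igfbp2, an IGF binding protein, with 6.80 in the bulge control and 11.30, 11.71 and 10.67 in the IFE controls (−4.43, adjusted p = 0.0696). Of 40 guidance genes 10 were higher and 4 lower (median 0.21). The receptor Ephb1 differed by 3.48 (adjusted p = 0.00102), Slit3 by 3.53 (0.0139) and Ntn4 by 2.56 (0.00193). Sema3d, a secreted semaphorin, had 3.99 in the bulge control and 8.51, 8.56 and 8.89 in the IFE controls (−4.67, adjusted p = 0.0957), and Sema4d (−1.79, 0.0226), Efna3 (−1.25, 0.12) and Plxnc1 (−1.10, 0.613) were the other lower genes.

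Other genes with the largest differences encode enzymes and a transporter. Fads2, a fatty acid desaturase, had 11.41 in the bulge control and 5.88, 5.72 and 5.72 in the IFE controls (5.64 ± 0.98 SE, limma adjusted p = 0.0114). Adcy7, an adenylate cyclase, had 11.36 in the bulge control and 5.19, 5.81 and 5.73 in the IFE controls (5.78 ± 0.96 SE, adjusted p = 0.00879). Slc7a8, an amino acid transporter, had 10.68 in the bulge control and 5.15, 5.04 and 5.11 in the IFE controls (5.58 ± 0.78 SE, adjusted p = 0.00339). In each of them the controls lay within 1 log2 of each other. The matrix genes Spon1 (4.86, adjusted p = 0.00453) and Vcan (4.85, 0.13) complete the 15 largest. Averaged over all probe sets they gave 1.52 and 1.87.

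Differentiation genes of the IFE were more often lower than higher in the bulge control. Of 31 genes read 14 were counted lower and 2 higher, with a median of −0.89, and 3 passed limma, all lower. Krt1, the first suprabasal keratin, had 9.41 in the bulge control and 13.15, 12.82 and 12.42 in the IFE controls (−3.38 ± 0.65 SE, limma adjusted p = 0.0181). Its partner Krt10 had 12.27 in the bulge control and 14.01, 13.95 and 13.69 in the IFE controls (−1.61 ± 0.35 SE, adjusted p = 0.0347, and 0.0566 to 0.089 without 1 or another control). Tgm3, a transglutaminase of cornification, had 6.58 in the bulge control and 10.11, 10.85 and 10.96 in the IFE controls (−4.06 ± 0.72 SE, adjusted p = 0.0125). The desmosomal cadherin Dsc1 (−2.75, adjusted p = 0.0723), Krtdap (−2.39, 0.132), Grhl3 (−2.18, 0.204) and Krt2 (−1.97, 0.616) were counted lower without passing. The 2 higher genes were Ivl (1.82, 0.526) and Prdm1 (1.47, 0.464). The IFE cells are labelled as basal, and these suprabasal signals were measured in them.

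Some hair-type keratins were lower too. Krt36 had 11.04 in the bulge control and 13.22, 13.08 and 12.87 in the IFE controls (−2.01, limma adjusted p = 0.622). Krt84 had 10.49 in the bulge control and 12.51, 12.92 and 12.30 in the IFE controls (−2.09, adjusted p = 0.485). With Krt24 (−2.51) they were the 3 lower genes of 13 tail scale and hair-type keratins read, and none was higher.

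The largest lower difference was that of Foxq1, a forkhead factor, with 4.47 in the bulge control and 10.35, 9.59 and 9.52 in the IFE controls (−5.35 ± 1.16 SE, limma adjusted p = 0.0331, and 0.0689 to 0.0823 without 1 or another control). Fgf13, an intracellular FGF relative, had 4.30 in the bulge control and 9.52, 8.16 and 8.87 in the IFE controls (−4.55 ± 0.90 SE, adjusted p = 0.0207). Slc16a1, a lactate transporter, had 5.95 in the bulge control and 10.44, 10.15 and 10.37 in the IFE controls (−4.37 ± 0.50 SE, adjusted p = 0.00102). Clca3a2 (−4.27, adjusted p = 0.045) passed as well. Serpinb7 (−4.74, 0.339), Tmem45a2 (−4.47, 0.347), Gdpd2 (−4.17, 0.151), Ogn (−3.98, 0.126), Olig1 (−3.87, 0.255) and Serpinb12 (−3.83, 0.187) did not pass. The oestrogen receptor Esr1 had 5.14 in the bulge control and 9.33, 8.88 and 10.00 in the IFE controls (−4.26, 0.0573), and its other 2 probe sets disagreed, at −3.22 and 2.18.

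Genes of the upper follicle and of the sebaceous gland were on the IFE side. Of 11 genes of the isthmus and junctional zone 7 were counted lower and 0 higher (median −1.50). Klf5, an epithelial transcription factor, had 7.22 in the bulge control and 10.82, 11.08 and 10.68 in the IFE controls (−3.64 ± 0.26 SE, limma adjusted p = 0.000108), and averaging its probe sets gave −1.81. Gata6 differed by −1.88 (0.388), while Lrig1 (0.82) and Lgr6 (−0.77), stem cell markers of these regions, were not counted. Of 12 sebaceous genes 6 were lower and 1, Acot1, was higher (median −1.20). Dgat2, which makes triglycerides, passed at −1.90 ± 0.37 (SE; adjusted p = 0.0186). Pparg, the regulator of sebocyte differentiation, had 4.59 in the bulge control and 8.29, 6.62 and 7.10 in the IFE controls (−2.75, adjusted p = 0.225).

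No cell cycle gene was counted. None of 34 was counted in either direction, the median was 0.01, and Mki67 had 11.12 in the bulge control and 11.52, 10.98 and 11.36 in the IFE controls. In limma 0 of the 34 genes passed, with 0 at an unadjusted p under 0.05, where 2357 of all 18194 genes lay. Of 19 cell cycle inhibitors and quiescence genes 5 were counted higher and 1, Txnip (−1.07), lower, with a median of −0.13. Cdkn2b had 9.61 in the bulge control and 7.55, 7.42 and 7.94 in the IFE controls (1.97 ± 0.29 SE, limma adjusted p = 0.00493), and Cdkn1c (1.46, 0.152), Cdkn2a (1.47, 0.736), Gadd45g (1.08, 0.321) and Btg2 (3.38, 0.308) were counted higher without passing. Immediate-early genes, which also respond to tissue dissociation, were higher for 8 of 22 and lower for 0 (median 0.65). Atf3 had 9.90 in the bulge control and 6.84, 7.52 and 7.34 in the IFE controls (2.67, adjusted p = 0.067), and none of the 22 passed limma, with 2 at an unadjusted p under 0.05. Their part in the other differences was not tested.

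Melanocyte genes were lower for 9 of 13 and higher for none (median −2.21), and 0 passed limma. At an unadjusted p under 0.05, where 2357 of all 18194 genes lay, there were 9 of these 13. Their mean level was 5.38 in the bulge control and 6.49, 8.35 and 6.92 in the IFE controls, highest in replicate 2. Dct had 6.57 in the bulge control and 8.58, 11.27 and 9.81 in the IFE controls. Kit, Ednrb, Tyr and Mlana lay under the 40th percentile of the bulge array. Leukocyte and Langerhans cell genes had mean levels of 5.93 in the bulge control and 5.70 to 6.46 in the IFE controls, with 2 of 22 higher, Lyz2 and Epcam, the last also a gene of follicle epithelium. Ptprc had 4.03 in the bulge control and 4.16, 4.39 and 5.01 in the IFE controls.

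Endothelial genes had 1 of 15 higher, Tek, and 1 lower, Cldn5, while Pecam1 had 4.57 in the bulge control and 4.48 to 4.90 in the IFE controls. Of 17 fibroblast and dermal papilla genes 3 were higher, Col1a1, Crabp1 and Cspg4, and 1 lower, Ogn, with mean levels of 5.51 in the bulge control and 5.42 to 5.81 in the IFE controls. Pdgfra, Dpt and Prrx1 lay under the 40th percentile of the bulge array. Sex-linked signals also differed among these arrays, and the bulge control held both Xist and Y-linked signal. Whether that array pooled mice of both sexes was not tested. Xist had 12.04 in the bulge control and 11.11, 7.82 and 11.37 in the IFE controls, and the Y-linked Eif2s3y had 7.94 in the bulge control and 3.78, 9.86 and 3.64 in the IFE controls. The part of melanocytes and of sex in the other differences was not tested.

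**Figure D3:**
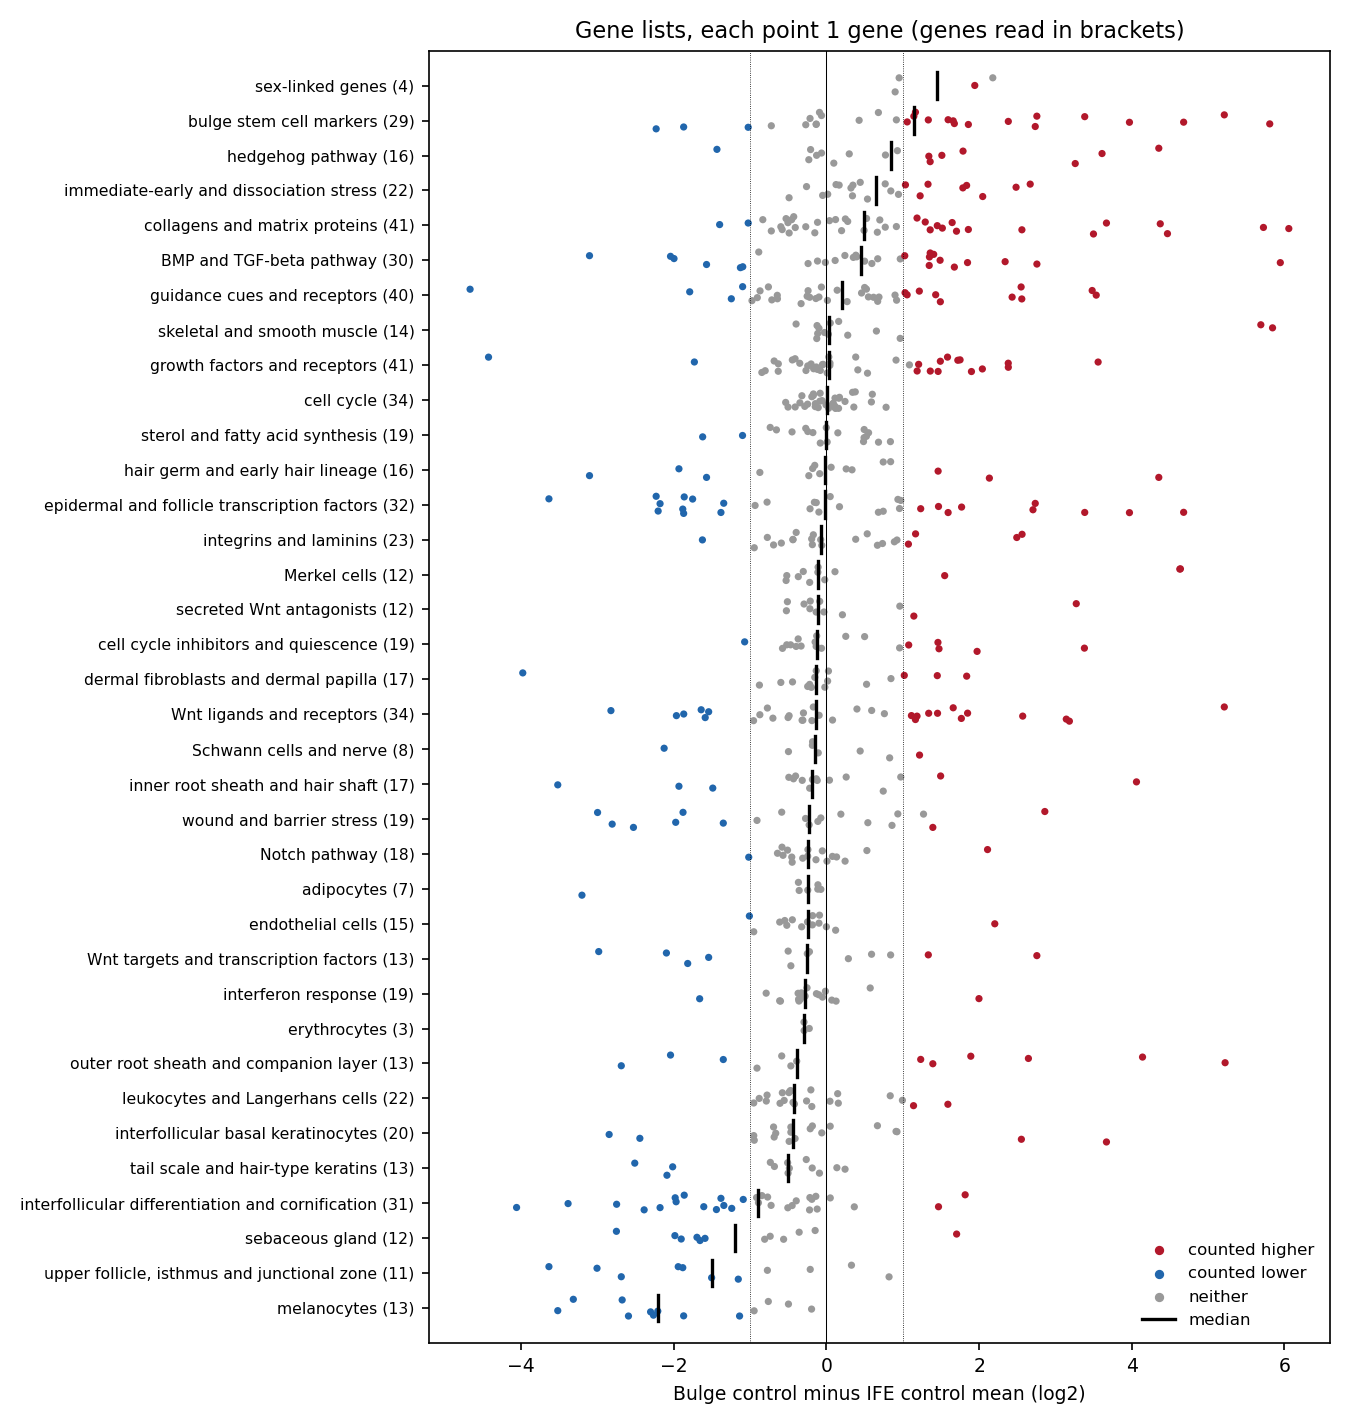
Each point is 1 gene of a list, placed by its difference between the bulge control and the IFE control mean (x axis, log2); red is counted higher, blue counted lower, grey neither, and the black bar is the median of the list. Below the 4 sex-linked genes, bulge markers and hedgehog genes have the highest medians, 1.15 and 0.85, cell cycle genes cluster around 0, and melanocyte and upper follicle genes lie to the left.

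A second pair of arrays, with no array in common, compared the same compartments 4 weeks after tamoxifen had switched on SmoM2: 1 bulge array of K19CREERT2/Rosa-SmoM2-YFP mice against 3 IFE arrays of K14CREER/Rosa-SmoM2-YFP mice. There 538 genes (2.96%) were higher and 224 (1.23%) lower in the bulge, 762 in all (4.19%). Of the genes higher in the untreated bulge, 224 were also higher in the SmoM2 bulge, which is 21.4% of the untreated list and 41.6% of the SmoM2 list. Of the lower genes 65 were shared, 8.07% of the untreated list and 29.0% of the SmoM2 list. Opposite calls were made for 20 genes higher and 71 genes lower in the untreated bulge. By sign alone, 76.5% of the higher genes were also positive in the SmoM2 pair, where 44.5% of all genes were positive, and 59.6% of the lower genes were negative, where 55.5% of all genes were.

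Genes counted higher in both pairs included Spon1, with 8.73 in the SmoM2 bulge and 3.88, 3.68 and 5.17 in the SmoM2 IFE arrays (difference 4.49 there and 4.86 in untreated cells). Tagln differed by 3.28 in SmoM2 cells, Adamts20 by 3.03, Cd34 by 2.78, Gjb2 by 2.65 and Krt19 by 1.93. Each was smaller than its difference in untreated cells. Krt75 was an exception, at 3.07 in SmoM2 cells and 2.65 in untreated cells. Only 3 genes were lower by at least 2 log2 in both pairs: Fst (−2.61 in SmoM2 cells and −2.04 in untreated cells), Aldh3a1 (−3.34 and −3.14) and Abhd14b (−2.07 and −2.10).

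Other genes of the untreated difference were not counted in the SmoM2 pair. Gli1 had 9.96 in the SmoM2 bulge and 10.55, 10.83 and 9.95 in the SmoM2 IFE arrays. Lhx2 had 11.61 in the SmoM2 bulge and 11.65, 11.74 and 11.68 in the SmoM2 IFE arrays. Lgr5 had 10.34 in the SmoM2 bulge and 9.69, 10.56 and 10.60 in the SmoM2 IFE arrays. For these 3 genes the bulge array lay inside or next to the IFE range, and Col14a1 (0.54), Col4a1 (0.01), Tbx1 (0.04) and Runx1 (0.03) were not counted either. Krt36 went the other way, with 13.83 in the SmoM2 bulge and 9.36, 6.77 and 10.56 in the SmoM2 IFE arrays (4.93, against −2.01 in untreated cells), as did Krt84 (4.95 against −2.09), Krt2 (2.75 against −1.97) and Tgm3 (1.62 against −4.06).

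The difference between the pairs was itself tested in limma. It passed for 3 genes (0.0165%), all with a smaller bulge excess in SmoM2 cells: Pid1 (−3.38 ± 0.39 SE, adjusted p = 0.0305), Castor2 (−3.09 ± 0.39 SE, 0.0456) and Ptger2 (−2.66 ± 0.28 SE, 0.0255). At an unadjusted p under 0.05 there were 1199 of 18194 genes, where a share of 0.05 would fall without any difference. For Gli1 the test gave −4.83 ± 1.11 (SE; adjusted p = 0.205), for Lgr5 −5.15 (0.294), for Krt36 6.95 (0.256) and for Krt84 7.04 (0.179), none of which passed.

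**Figure D4:**
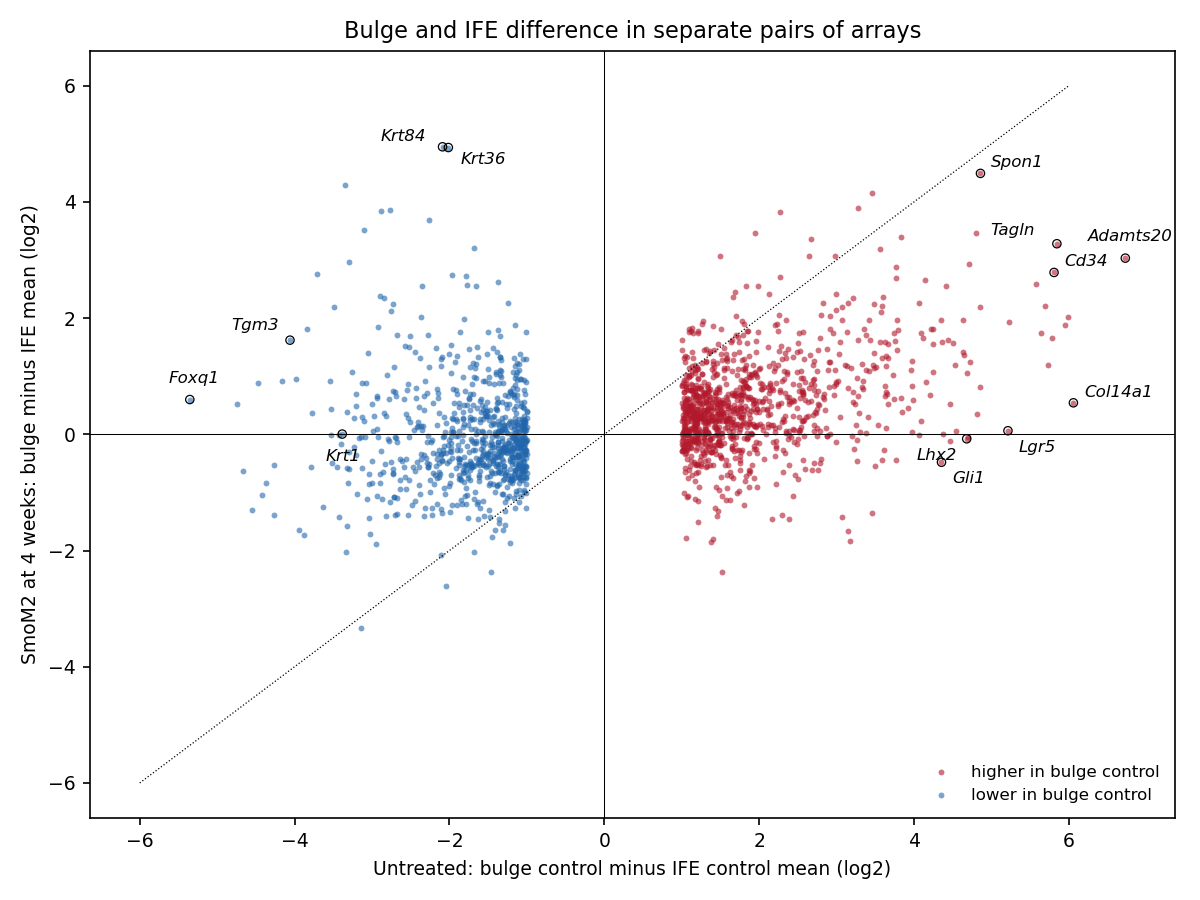
Each point is a gene counted in untreated cells (red 1045 higher, blue 805 lower), with its untreated difference on the x axis and its bulge minus IFE difference 4 weeks after SmoM2 activation on the y axis, both in log2; the dotted line marks equal differences. Most red points lie above 0 and below the line, Spon1 lies close to it, Gli1, Lgr5 and Lhx2 lie near 0, and Krt36 and Krt84 lie high on the left.

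Across all groups of the series, some genes of the bulge difference had low levels in every IFE group and others did not. Krt19 had 9.88 in the bulge control and 7.02 in the bulge SmoM2 array, against 4.65 ± 0.096 in IFE control (SD, n = 3) and means between 4.72 and 5.81 in the IFE SmoM2 groups. Cd34 averaged between 3.80 and 5.41 over the IFE SmoM2 groups, and its highest IFE array, at 1 week, had 5.63, below both bulge arrays. Acta2 was not low in every IFE group. It had 12.38 in the bulge control, 8.99 in bulge SmoM2 and at most 9.18 in an IFE array, the single one at 3 days. Gli1 had 9.89 in the bulge control, and another course through the IFE groups: 5.54 ± 0.22 in IFE control (SD, n = 3), 7.28 at 3 days (n = 1), 9.48 at 1 week (n = 3), 10.44 at 4 weeks (n = 3), 9.78 at 10 weeks (n = 2) and 8.39 in the SmoM2 group with β-catenin loss (n = 2). The treated IFE groups and the bulge control are each set against the same IFE controls, so their likeness is given as values only.

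**Figure D5:**
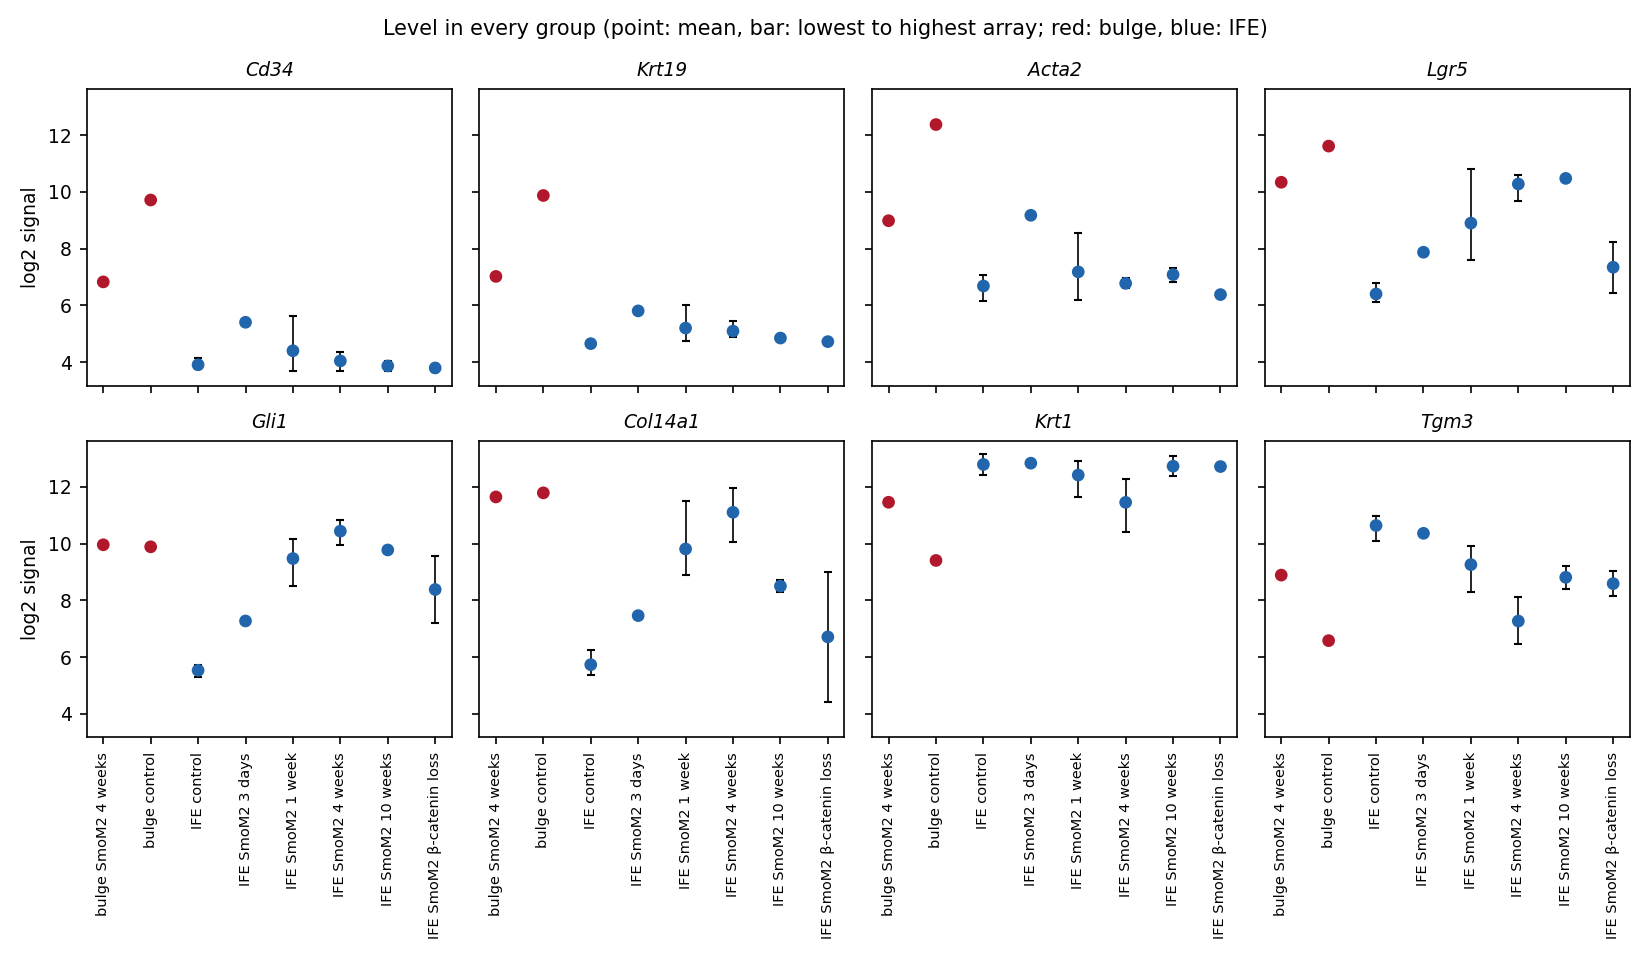
Log2 signal of 8 genes in every group, with the point at the mean and the bar from the lowest to the highest array (red bulge, blue IFE; groups of 1 array have no bar). Cd34, Krt19 and Acta2 are highest in the bulge control, Lgr5, Gli1 and Col14a1 reach means of 10.28, 10.44 and 11.11 in IFE SmoM2 at 4 weeks, and Krt1 and Tgm3 have their lowest group value in the bulge control.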

How the data were processed

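The authors deposited 1 table of log2 signals for 45101 probe sets on 16 Affymetrix arrays. Per the labels' protocols, the probes were made from total RNA by in vitro transcription. The submitters' processing notes name R 2.14.0, while how the signals were normalized and summarised per probe set is not given in the sources used. The log2 scale was read from the range of the deposited values. The array medians were 5.38 to 5.53. The number of arrays limits the precision.

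By the array annotation, 34958 probe sets had 1 gene, 932 several and 9211 none. An identifier match to RefSeq was found for 34754 of the first kind, with 0 symbols changed. For a gene with several probe sets, the brightest on average over the 16 arrays stood for it, which gave 18194 genes. Groups came from the sample labels.

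The counts by range and size were made without a test. limma 3.58.1 in R 4.3.3 fitted 8 group means to the 16 arrays with empirical Bayes moderation (10.7 total degrees of freedom), with p-values adjusted by Benjamini-Hochberg over 18194 genes and a threshold of 0.05. The procedures were tested on simulated data. In the simulation for limma the lone bulge array was made to vary like the others, so that assumption was not tested. Alternatives changed the signal filter, the probe set, the normalization, the size rule, the arrays fitted and each control. The probe set was changed for the differences and counts only, not for the limma fit.

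The comparison and all gene lists were chosen with earlier results of these data known. The 145 named genes were the 15 largest differences each way with a proper symbol, up to 4 counted members of each list (or else its 2 largest), and a fixed set of epidermal and follicle genes. Fst, Aldh3a1, Abhd14b, Castor2, Pid1, Ptger2 and other list members were named after their values were seen. Promoter sequences are from RefSeq (GRCm38.p6).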

Additional observations from a re-analysis of the deposited data

Results flagged for a closer look

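The bulge to IFE difference was not the same in SmoM2 and in untreated cells for 3 genes, by the limma test of the difference itself. Pid1 had 5.20 in the SmoM2 bulge against 4.34, 4.94 and 4.53 in the SmoM2 IFE arrays, and 8.28 in the bulge control against 4.25, 4.28 and 4.37 in the IFE controls, a change of −3.38 between the pairs. Castor2, an arginine sensor gene relative, had 6.49 in the SmoM2 bulge against 5.90, 6.39 and 6.26 in the SmoM2 IFE arrays, and 8.68 in the bulge control against 5.20, 5.13 and 5.51 in the IFE controls, a change of −3.09. Ptger2, a prostaglandin E2 receptor, had 3.69 in the SmoM2 bulge against 3.82, 4.05 and 4.18 in the SmoM2 IFE arrays, and 6.25 in the bulge control against 3.97, 3.77 and 4.01 in the IFE controls, a change of −2.66. Each rests on 1 bulge array per condition, whose spread the fit assumed. All these Ptger2 signals except that of the bulge control lay under the 40th percentile of their arrays. So did the Pid1 signals of the IFE controls.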

How the results depend on the processing

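No paired analysis was possible because the bulge control is a single array and shares fewer than 2 replicate numbers with the IFE controls. With a threshold of 2 log2, 341 genes were higher and 228 lower in the bulge control, and at that size the genes higher in both pairs of arrays numbered 38 and the genes lower in both pairs of arrays 3. The limma count of lower genes, 159 in all, was 92 to 96 when 1 IFE control was left out. The count of genes lower in both pairs of arrays, 65, was 72 to 98 when 1 IFE SmoM2 array at 4 weeks was left out, and 98 without replicate 2. Over the other alternatives the higher count ran from 904 to 1430 and the lower count from 636 to 924. Leaving out the bulge SmoM2 array gave the same 405 and 159 limma genes, since a lone array adds no residual. Fitting only the 4 arrays compared gave 354 and 194. Of 1158 recomputed differences of named genes 1095 stayed within 1 SD of the controls, 63 moved by more and 0 of the counted genes turned their sign. Among uncounted genes 3 did: Gas1 (−0.06) gave 0.08 with averaged probe sets and 0.32 with the probe set of highest variance, and without IFE control replicate 1 Shh (−0.23) gave 0.045 and Wif1 (−0.13) gave 0.25. Averaging probe sets moved 21 named genes by over 1.5 times, among them Apcdd1 (−2.48), Fgf13 (−2.50) and Slc16a1 (−2.35). For Cux1 (1.23), the probe set of highest variance gave 3.83. Without IFE control replicate 1, Cdh3 differed by 1.37 in place of 2.13 and Jun by 0.95 in place of 1.84, and without replicate 3 Gbp2 differed by −0.37 in place of −1.66. Of 57 named genes past the limma threshold 39 passed under every alternative fitted in limma. No such fit used averaged or other probe sets, so the 39 were not tested against that choice. The other 18 were lost when 1 or another IFE control was left out. The highest adjusted p without 1 control was, per gene, Axin2 (0.0709), Cck (0.0686), Clca3a2 (0.11), Col1a1 (0.0524), Col4a1 (0.0822), Crabp1 (0.1), Dgat2 (0.053), Fgf13 (0.0535) and Foxq1 (0.0823). It was Gjb2 (0.0554), Gli2 (0.0843), Krt10 (0.089), Krt75 (0.056), Lamb1 (0.0928), Lgr5 (0.0517), Lhx2 (0.0764), Ly6d (0.113) and Tbx1 (0.086) in the other genes. No detection calls were used, so low signals have no order. Some of the largest differences rest on such signals. The IFE control signals of Cd34 and Adamts20 lay under the 40th percentile of their arrays, as did the bulge control signals of Foxq1 and Sema3d.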

Other observations

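3 further lists were assembled after these values were seen and are given as descriptions. Of 18 circadian clock and output genes read, 8 were counted lower and 1 higher in the bulge control. The median of the 18 was −0.72 against −0.09 over all genes, and 0 passed limma. At an unadjusted p under 0.05, where 2357 of all 18194 genes lay, there were 8 of the 18. Dbp, an output gene of the clock, had 8.20 in the bulge control and 11.94, 11.23 and 11.13 in the IFE controls. Nr1d1, a clock repressor, had 6.02 in the bulge control and 8.74, 8.02 and 7.92 in the IFE controls. Hlf (−2.86), Rora (−3.13) and Ciart (−1.75) were lower, and Nfil3, which opposes Dbp, was higher (1.38). In the SmoM2 pair the median of the list was −0.11.

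Of 34 genes of alcohol, aldehyde and xenobiotic metabolism, 15 were lower and 1 higher (median −0.91), and 1 on each side passed limma, Cyp4b1 (−2.76) and Cyp2s1. Adh1 had 6.90 in the bulge control and 11.14, 11.26 and 9.66 in the IFE controls (limma adjusted p = 0.266). Aldh3a1 had 6.97 in the bulge control and 10.45, 9.10 and 10.76 in the IFE controls (limma adjusted p = 0.191). Cyp2s1 had the higher signal in the bulge control (3.28, limma adjusted p = 0.00279).

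Among 18 genes of polyunsaturated fatty acid desaturation and prostaglandins, 8 were higher and 5 lower (median 0.27). Fads1 had 11.35 in the bulge control and 6.58, 6.39 and 7.04 in the IFE controls (4.68, limma adjusted p = 0.00287), and Fads3 differed by 2.71 (0.00965). Ptgs2, a cyclooxygenase, had 10.55 in the bulge control and 5.81, 6.57 and 5.33 in the IFE controls (4.64, adjusted p = 0.0530). Hpgd, which inactivates prostaglandins, had 5.97 in the bulge control and 8.63, 9.82 and 9.64 in the IFE controls (−3.40, adjusted p = 0.0380).

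Of 18120 pairs of genes next to each other in the genome, 181 were counted the same way, 107 higher and 74 lower, and 59 in opposite directions. Of all single genes 5.74% were counted higher and 4.42% lower. These are shares of genes and not of pairs, and whether neighbours share a direction more often than other genes was not tested. In 3 pairs both genes differed by at least 4 log2: Fads2 with Fads1, Krt8 with Krt18, and Col4a1 with Col4a2.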
